A study of Mus musculus with 18 samples.

Results

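Myelin of the central nervous system is made by mature oligodendrocytes, and its most abundant structural proteins and lipid-making enzymes are encoded by a small set of genes. The 9 genes described here are Mal, Mbp, Mog, Mag, Mobp, Cnp, Cldn11, Ugt8a and Ermn, which were listed by symbol as genes of mature oligodendrocytes. All 9 were found among the 55385 genes of the count table, and all 9 passed the filter on low counts that left 18717 genes for testing. Their RNA was followed in the cortex of 3 mouse genotypes. Dp16_2xIFNRs mice (n = 6) and Dp16 mice (n = 6) both have an additional copy of a segment of mouse chromosome 16, as a model of trisomy 21. In Dp16_2xIFNRs mice the interferon receptor genes inside that segment are at the normal copy number. WT mice (n = 6) were C57BL/6J. Each genotype had 3 males and 3 females, aged 17.1 to 18 weeks, and the labels give no treatment. The duplication is carried in every cell and is not limited to oligodendrocytes.

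An oligodendrocyte wraps axons with many turns of its membrane and then expels most of the cytoplasm between the turns, so that myelin genes are switched on together late in the cell's maturation, under transcription factors such as Sox10 and Myrf. Mbp and Mobp encode basic proteins of the cytoplasmic face, of which Mbp holds the membrane turns together. Cnp encodes a phosphodiesterase of the cytoplasm-containing channels of the sheath, Mog and Mag encode immunoglobulin-type proteins of its outermost and innermost layers, Cldn11 encodes the claudin of its tight junctions, and Mal encodes a small proteolipid of lipid-rich membranes that takes part in sorting membrane proteins. Ugt8a makes galactosylceramide, the main glycolipid of myelin, and Ermn encodes ermin, a cytoskeletal protein of late oligodendrocytes.

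None of the 9 genes lies on chromosome 16, so none is duplicated. By GENCODE release M21 on GRCm38, Mal lies at chr2:127633226-127656695 on the minus strand, Mobp at chr9:120149707-120181484 on the plus strand, Mag at chr7:30899176-30914873 on the minus strand and Cnp at chr11:100574904-100591729 on the plus strand.

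The start-site windows of 4 members are shown because Mal and Mobp had the largest differences between genotypes described below, whereas Mag and Cnp stayed near WT. The sequences are those of RefSeq on GRCm38.p6, from 250 bases before to 50 bases after the annotated start, 5′ to 3′ on the gene's own strand, at chr2:127656646-127656945 (minus) for Mal, chr9:120149492-120149791 (plus) for Mobp, chr7:30914814-30915113 (minus) for Mag and chr11:100574689-100574988 (plus) for Cnp. Capitals mark matches on either strand to a SOX-type motif (ACAAAG, read CTTTGT on the other strand, or AACAAT) or to the Myrf-type motif CTGGCAC.
Mal: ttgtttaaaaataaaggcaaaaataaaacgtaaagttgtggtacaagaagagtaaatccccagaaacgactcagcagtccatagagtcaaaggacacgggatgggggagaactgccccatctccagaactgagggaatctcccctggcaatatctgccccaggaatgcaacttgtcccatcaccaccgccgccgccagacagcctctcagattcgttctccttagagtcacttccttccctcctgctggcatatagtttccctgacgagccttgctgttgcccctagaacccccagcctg
Mobp: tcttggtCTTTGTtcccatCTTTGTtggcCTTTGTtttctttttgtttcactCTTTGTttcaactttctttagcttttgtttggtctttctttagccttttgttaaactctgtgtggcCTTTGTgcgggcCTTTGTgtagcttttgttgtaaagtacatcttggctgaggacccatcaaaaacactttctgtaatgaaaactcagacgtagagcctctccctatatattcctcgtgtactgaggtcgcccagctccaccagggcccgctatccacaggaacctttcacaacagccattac
Mag: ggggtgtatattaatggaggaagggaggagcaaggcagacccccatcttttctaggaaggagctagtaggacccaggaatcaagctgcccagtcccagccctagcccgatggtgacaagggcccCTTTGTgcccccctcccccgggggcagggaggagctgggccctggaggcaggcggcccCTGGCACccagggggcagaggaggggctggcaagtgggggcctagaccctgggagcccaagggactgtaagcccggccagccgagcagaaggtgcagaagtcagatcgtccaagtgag
Cnp: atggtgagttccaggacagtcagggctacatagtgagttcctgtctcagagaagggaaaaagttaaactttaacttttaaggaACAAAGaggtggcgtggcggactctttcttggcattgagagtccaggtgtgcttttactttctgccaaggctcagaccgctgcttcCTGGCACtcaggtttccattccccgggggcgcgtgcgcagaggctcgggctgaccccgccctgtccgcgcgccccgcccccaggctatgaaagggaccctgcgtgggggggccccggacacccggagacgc
The Mobp window held 6 matches to the SOX-type motif, all in the orientation CTTTGT, where 27% of 32851 windows held at least 1 match and 3 windows (0.00913%) held 6 or more. That cutoff of 6 was taken from the Mobp window itself. The Mag and Cnp windows each held 1 SOX-type and 1 Myrf-type match, and 5.01% of all windows held the Myrf-type motif. The Mal, Mog and Ugt8a windows held no match to either motif, nor to the E-box forms CAGCTG and CATCTG, the CCAAT box or the TATA box TATAAA. Cldn11 had 2 matches and Ermn 1 match to CCAAT, a motif found in 37.4% of windows. These are matches of letters within 300 bases and say nothing of binding. RefSeq listed 3 windows for Mag, of which the one nearest the GENCODE start was taken.

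The libraries held 47912340 to 61150849 counts in Dp16_2xIFNRs, 46346019 to 67281449 in Dp16 and 47554526 to 52006799 in WT. The duplicated segment matched the labels of genotype. The median log2 level of 111 segment genes relative to the WT mean was 0.53 to 0.57 in Dp16_2xIFNRs, 0.53 to 0.58 in Dp16 and -0.0085 to 0.014 in WT. The median of the receptor genes was -0.068 to 0.072 in Dp16_2xIFNRs, 0.49 to 0.64 in Dp16 and -0.16 to 0.15 in WT. The 9 myelin genes together took 0.374% to 0.513% of all counts in a library. Levels are given as CPM, the share of a library's counts after scaling with TMM factors, and, where genes are compared with each other, as RPKM, which also divides by gene length. In such bulk tissue, fewer oligodendrocytes and less RNA per oligodendrocyte cannot be told apart.

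Over all 18 libraries, Mbp was the highest of the 9 genes at 367 ± 30.9 RPKM (SD, n = 18). It was followed by Cnp at 143 ± 13.7 RPKM, Mal at 90.7 ± 18.0 RPKM, Mag at 84.3 ± 6.87 RPKM and Cldn11 at 78.3 ± 7.25 RPKM. Mobp stood at 61.3 ± 10.7 RPKM, Mog at 32.2 ± 3.65 RPKM, Ermn at 18.2 ± 2.05 RPKM and Ugt8a at 12.8 ± 1.41 RPKM. Mbp and Cnp stood clear of their neighbours in this order in every library, and so did Mog between Mobp above and Ermn below. Mag and Cldn11 lay within 1 SD of Mal, Cldn11 and Mobp overlapped in range, and so did Ermn and Ugt8a. Within every single library, though, Cldn11 was above Mobp and Ermn above Ugt8a. The place of Mal in this order differed between genotypes. In Dp16_2xIFNRs, Mal was the third at 106 ± 7.80 RPKM, above Mag at 88.8 ± 5.202 RPKM and Cldn11 at 82.9 ± 5.47 RPKM, and its lowest library, at 97.2 RPKM, lay above the highest of either, at 96.5 RPKM for Mag. In Dp16, Mal was also the third at 94.9 ± 15.9 RPKM, above Mag at 82.5 ± 7.10 RPKM and Cldn11 at 77.3 ± 8.99 RPKM. In WT, Mal was the fifth at 71.4 ± 6.69 RPKM, below Mag at 81.6 ± 6.73 RPKM and Cldn11 at 74.7 ± 5.09 RPKM. In Dp16 and in WT the ranges of these 3 genes overlapped. Within each WT library, however, Mal lay below both Mag and Cldn11. Within Dp16, Mal lay above Cldn11 in each library and below Mag only in replicates 2 (72.4 against 76.5 RPKM) and 6 (80.8 against 83.9 RPKM).

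Mal was the member that separated the genotypes most. In Dp16_2xIFNRs the lowest, median and highest libraries had 264, 288 and 337 CPM. In Dp16 they had 204, 267 and 321 CPM. In WT they had 182, 195 and 230 CPM. Every Dp16_2xIFNRs library lay above every WT library, whereas Dp16 replicates 2 and 6, at 204 and 219 CPM, lay within the WT range and the other 4 Dp16 libraries lay above it. Mal averaged 292.5 ± 24.3 CPM in Dp16_2xIFNRs, 264 ± 45.9 CPM in Dp16 and 199 ± 17.2 CPM in WT (SD, n = 6 each). Mal rose 1.46-fold in Dp16_2xIFNRs relative to WT (log2 fold change 0.55, SE 0.0951, 95% interval 0.35 to 0.75, adjusted p = 0.00397, edgeR quasi-likelihood test). In Dp16 relative to WT its log2 fold change was 0.40 (SE 0.0951, 95% interval 0.20 to 0.60, 1.32-fold), and the adjusted p was 0.0625, just above the threshold of 0.05. Without Dp16 replicate 2 that adjusted p was 0.00825, without Dp16 replicate 6 it was 0.0271, and without WT replicate 5 it was 0.0301. Sample identifiers fall into number series, and 5 single numbers are shared by 11 libraries of different genotypes, 1 of them by all 3 genotypes. The labels do not say what series or numbers mark. With the single number as a random block (limma-voom, chosen after seeing the data), Mal had an adjusted p of 0.00204 in Dp16_2xIFNRs and 0.0554 in Dp16, each relative to WT. Among the 11 libraries whose identifiers start with 9, the only series with more than 2 libraries of each genotype, the log2 fold change of Mal was 0.64 in Dp16_2xIFNRs (adjusted p = 0.0158) and 0.42 in Dp16 (adjusted p = 0.4), each relative to WT.

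Mobp, the other basic protein of the cytoplasmic face, came next. Its lowest, median and highest libraries had 278, 322 and 382 CPM in Dp16_2xIFNRs, 239, 290.4 and 367 CPM in Dp16, and 203, 239 and 295 CPM in WT. The genotypes overlapped: only WT replicate 5, at 295 CPM, reached into the range of Dp16_2xIFNRs, while 3 WT libraries lay above the lowest Dp16 library. Mobp averaged 326 ± 37.2 CPM in Dp16_2xIFNRs, 294 ± 47.0 CPM in Dp16 and 242 ± 30.0 CPM in WT. The log2 fold change was 0.43 in Dp16_2xIFNRs relative to WT (SE 0.104, 95% interval 0.21 to 0.64, adjusted p = 0.0572) and 0.28 in Dp16 relative to WT (95% interval 0.06 to 0.50, adjusted p = 0.394). Mobp therefore did not pass the test in either comparison. In Dp16_2xIFNRs relative to WT its adjusted p was 0.0049 by DESeq2, 0.0528 by limma-voom, 0.0408 by limma-voom with the identifier number as a random block and 0.0397 among identifiers starting with 9, and leaving out WT replicate 5 gave 0.0151, Dp16 replicate 1 gave 0.0292, Dp16 replicate 2 gave 0.0405 and Dp16_2xIFNRs replicate 6 gave 0.0363. The Mobp locus is shared with Gm38642, a non-coding transcript on the same strand with 857 to 1535 counts a library, so reads of the overlap could have been left out or assigned to either gene. Gm38642 had a log2 fold change of 0.28 in Dp16_2xIFNRs (adjusted p = 0.17) and 0.13 in Dp16 (adjusted p = 0.753), each relative to WT.

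**Figure D1:**
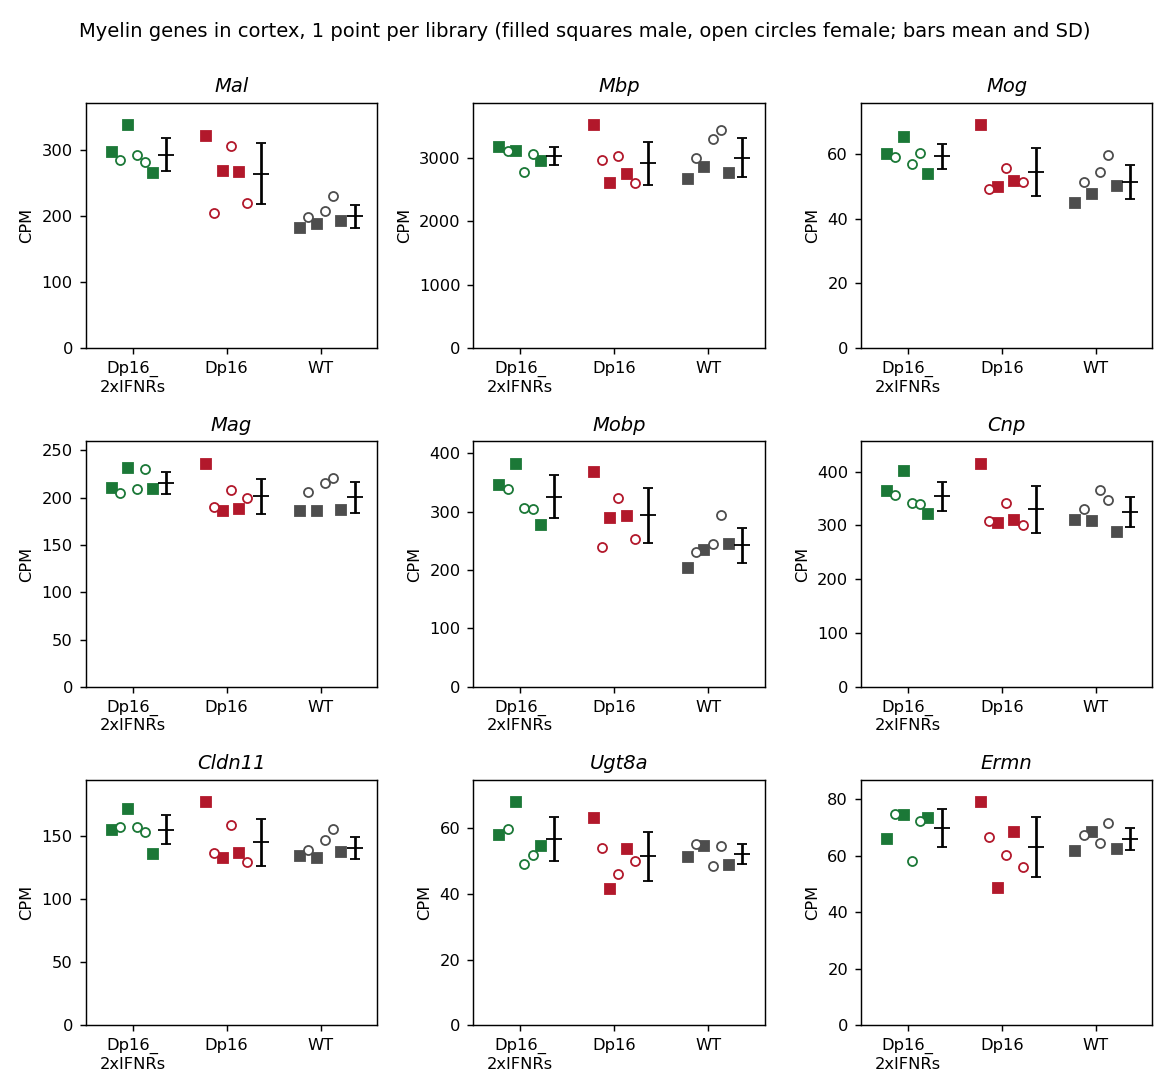
CPM of each of the 9 myelin genes (vertical axis, from 0) in each of the 18 cortex libraries, by genotype, with squares for males and circles for females, and the mean and SD of 6 libraries beside each group. For Mal, the Dp16_2xIFNRs libraries (264 to 337 CPM) all lie above the WT libraries (182 to 230 CPM), whereas Mbp spans 2787 to 3166 CPM in Dp16_2xIFNRs, 2612 to 3517 CPM in Dp16 and 2672 to 3439 CPM in WT.

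Mbp, which compacts the membrane turns and lies at chr18:82475146-82585637 on the plus strand, showed no such separation. The lowest, median and highest libraries had 2787, 3091 and 3166 CPM in Dp16_2xIFNRs, 2612, 2858 and 3517 CPM in Dp16, and 2672, 2928 and 3439 CPM in WT. The Dp16_2xIFNRs range lay wholly inside that of WT. The log2 fold change of Mbp was 0.02 in Dp16_2xIFNRs relative to WT (95% interval -0.14 to 0.17, adjusted p = 0.98) and -0.04 in Dp16 relative to WT (95% interval -0.19 to 0.11, adjusted p = 0.943). These intervals lie below the whole interval of Mal in Dp16_2xIFNRs relative to WT, and that of Mbp in Dp16 lies below the whole interval of Mal in Dp16. The counts sum all transcripts of Mbp, including forms of the gene made outside myelin.

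Cnp, the phosphodiesterase of the sheath's cytoplasmic channels, had its lowest, median and highest libraries at 321, 349 and 401 CPM in Dp16_2xIFNRs, 300.4, 309 and 415 CPM in Dp16, and 288, 321 and 366 CPM in WT. The 3 ranges overlapped, and Dp16 replicate 1 alone accounted for the high end of Dp16. The log2 fold change was 0.12 in Dp16_2xIFNRs (adjusted p = 0.611) and 0.02 in Dp16 (adjusted p = 0.977), each relative to WT. Cnp overlaps Dnajc7, a chaperone gene on the opposite strand with 5555 to 8963 counts a library, and the strand setting of the counting is not given in the sources used here. Dnajc7 had log2 fold changes of 0.06 in Dp16_2xIFNRs (adjusted p = 0.624) and 0.02 in Dp16 (adjusted p = 0.96), each relative to WT.

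Among the surface proteins, Mog, an autoantigen of demyelinating disease (chr17:37010743-37023398, minus strand), had 53.8, 59.5 and 65.1 CPM in its lowest, median and highest Dp16_2xIFNRs libraries, 49.1, 51.4 and 68.8 CPM in Dp16, and 44.7, 50.7 and 59.7 CPM in WT. Its log2 fold change was 0.21 in Dp16_2xIFNRs relative to WT (95% interval 0.04 to 0.37, adjusted p = 0.284) and 0.08 in Dp16 relative to WT (adjusted p = 0.862). The interval in Dp16_2xIFNRs lay above 0, yet the adjusted p did not pass. Mag, which adheres to the axon and restrains axon growth, had 205, 209.8 and 231 CPM in Dp16_2xIFNRs, 186, 195 and 236 CPM in Dp16, and 186, 196.5 and 221 CPM in WT. Its log2 fold change was 0.11 in Dp16_2xIFNRs (adjusted p = 0.529) and 0.01 in Dp16 (adjusted p = 0.99), each relative to WT. Cldn11, the tight-junction claudin (chr3:31149920-31164324, plus strand), had 135, 156 and 171 CPM in Dp16_2xIFNRs, 129.5, 136 and 176 CPM in Dp16, and 132, 138 and 155 CPM in WT. Its log2 fold changes were 0.14 in Dp16_2xIFNRs (adjusted p = 0.487) and 0.04 in Dp16 (adjusted p = 0.939), each relative to WT. The ranges of all 3 surface genes overlapped between every pair of genotypes.

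Neither the enzyme nor the cytoskeletal member separated the genotypes. Ugt8a, the galactosylceramide synthase (chr3:125865271-125938619, minus strand), had 49.2, 56.3 and 68.0 CPM in its lowest, median and highest Dp16_2xIFNRs libraries, 41.7, 51.9 and 63.2 CPM in Dp16, and 48.7, 52.9 and 55.4 CPM in WT. Its log2 fold change was 0.12 in Dp16_2xIFNRs (adjusted p = 0.661) and -0.02 in Dp16 (adjusted p = 0.976), each relative to WT. Ermn (chr2:58045113-58052864, minus strand) had 58.0, 72.7 and 74.9 CPM in Dp16_2xIFNRs, 48.7, 63.5 and 78.9 CPM in Dp16, and 61.7, 65.9 and 71.7 CPM in WT. Its log2 fold change was 0.08 in Dp16_2xIFNRs (adjusted p = 0.837) and -0.06 in Dp16 (adjusted p = 0.93), each relative to WT. For both genes the WT libraries were the most tightly grouped, with a CV of 5.86% for Ugt8a and 5.80% for Ermn, against 14.4% and 16.7% in Dp16.

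Across the set, 1 of 9 members, Mal, was called in Dp16_2xIFNRs relative to WT, where 1.05% of all genes tested were called, and 3 of 9 had an unadjusted p below 0.05 (11.5% of all genes). In the same comparison 9 of 9 log2 fold changes were above zero (50.2% of all genes) with a median of 0.12, against a median of 0.00043 over all genes. Only Mal had no overlap between these genotypes, and 0.93% of all genes were higher in Dp16_2xIFNRs without overlap. In Dp16 relative to WT, 0 of 9 members were called by edgeR, where 0.748% of all genes were called, and 2 of 9, Mal and Mobp, had an unadjusted p below 0.05 (8.84% of all genes). The genotypes overlapped for 9 of 9 members, where 0.919% of all genes were without overlap in either direction. DESeq2 called 1 of 9 there, Mal, and limma-voom and limma on log2 RPKM called 0. There 6 of 9 were above zero (49.3% of all genes), with a median of 0.02 against -0.0017 over all genes. Both comparisons use the same WT libraries, so their values stand side by side and do not bear each other out, and the members move together between libraries, as described below.

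Among the 18602 genes tested outside the duplicated segment, Mal ranked 21 by p in Dp16_2xIFNRs relative to WT, where 133 were called, 75 of them higher. By mean level, Mal was the most abundant of these 75 genes. Mobp, at rank 152, fell just outside the called genes. In Dp16 relative to WT, where 72 genes outside the segment were called, Mal ranked 83 and Mobp 648.

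**Figure D2:**
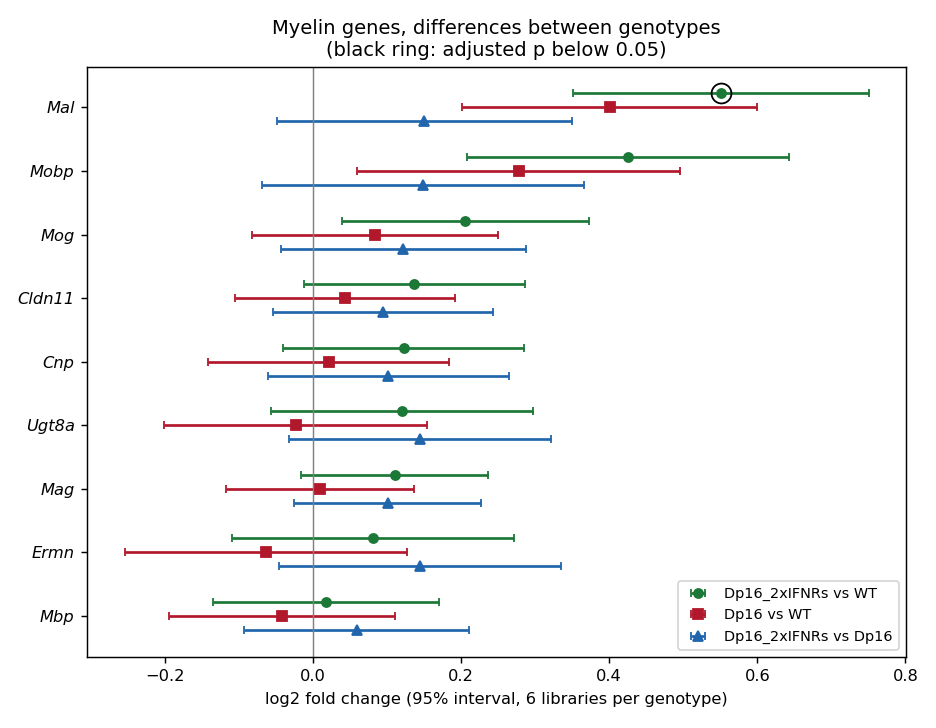
Log2 fold change with its 95% interval (horizontal axis) for each of the 9 myelin genes in 3 comparisons, from the fit of all 18 libraries, ordered by Dp16_2xIFNRs vs WT. Mal alone carries a black ring for an adjusted p below 0.05, at 0.55 in Dp16_2xIFNRs vs WT, and Mbp lies at 0.02 and -0.04 relative to WT.

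Set against Mbp within the same library, Mal amounted to 9.65 ± 0.783 CPM per 100 CPM of Mbp in Dp16_2xIFNRs, 9.06 ± 1.26 in Dp16 and 6.65 ± 0.247 in WT (SD, n = 6 each). The libraries lay between 8.94 and 10.8 in Dp16_2xIFNRs, between 6.90 and 10.3 in Dp16 and between 6.26 and 6.998 in WT. Dp16 replicate 2, at 6.90, was the only library of the duplication genotypes within the WT range. Mobp amounted to 10.7 ± 0.992 CPM per 100 CPM of Mbp in Dp16_2xIFNRs, 10.1 ± 1.09 in Dp16 and 8.06 ± 0.594 in WT, and the same Dp16 library was low at 8.08. These ratios do not depend on library scaling. They were chosen after the levels of the members had been seen and are a description with no test, and a ratio shows unequal change, not which gene changed.

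**Figure D3:**
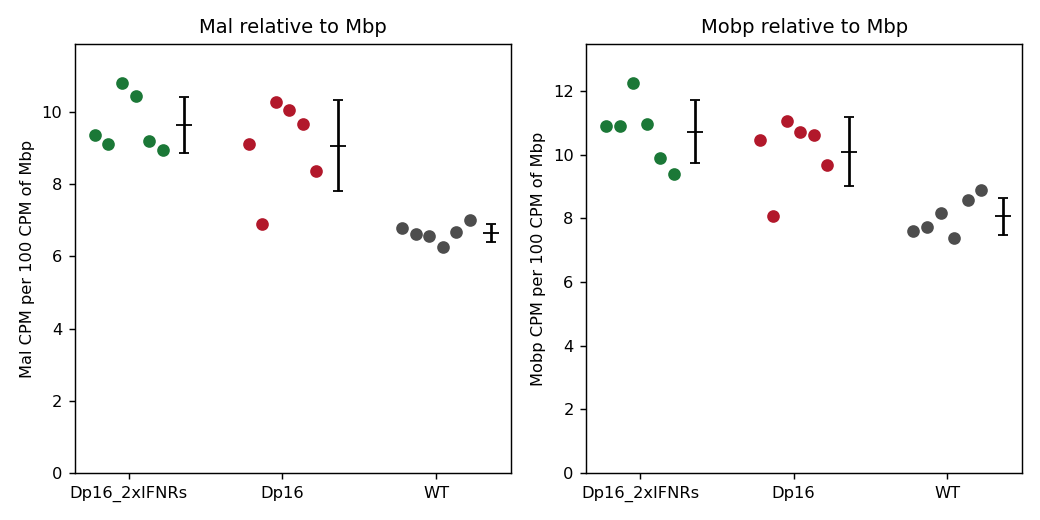
Mal (left) and Mobp (right) as CPM per 100 CPM of Mbp in each library (vertical axes, from 0), with the mean and SD of 6 libraries per genotype. Mal per 100 Mbp lies at 8.94 to 10.8 in Dp16_2xIFNRs and 6.26 to 6.998 in WT, with 1 of the 6 Dp16 libraries at 6.90 and the other Dp16 libraries above the WT range.

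The comparison of Dp16_2xIFNRs with Dp16, which asks what lowering the receptor genes to the normal copy number changes, gave small values of 1 sign. All 9 log2 fold changes were above zero, from 0.06 for Mbp to 0.15 for Mal, with a median of 0.12 against 0.0018 over all genes, and 50.9% of all genes were above zero. Since the members move together between libraries, as described below, these 9 values of 1 sign are not separate observations. None of the 9 was called by edgeR, where 0.0214% of all genes were called, and 0 of 9 had an unadjusted p below 0.05 (2.19% of all genes). DESeq2, limma-voom and limma on log2 RPKM also called 0 of 9. For Mal the interval ran from -0.05 to 0.35 (adjusted p = 1), so that a difference of up to 0.35 on the log2 scale could not be told from none. All 9 genes overlapped between these genotypes, where 0.107% of all genes were without overlap, and Dp16 replicate 1 was the highest Dp16 library for each of the 9.

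No member passed the test of sex over all libraries, although males and females were apart for most members in WT. Between males and females the log2 fold changes of the 9 genes ran from -0.05 for Mag to 0.07 for Ugt8a, and 0 of 9 were called by edgeR (0.0641% of all genes called). None had an unadjusted p below 0.05 (6.64% of all genes), and DESeq2 called 0 as well. In WT, all 3 males lay below all 3 females for 6 of 9 genes, Mal, Mbp, Mog, Mag, Cnp and Cldn11, where 8.06% of all genes did so. These genes move together between libraries, as described below, so the 6 are not separate observations and rest on the same 3 males and 3 females. In Dp16_2xIFNRs, 0 of 9 genes had males and females without overlap in either direction, where 5.47% of all genes did, and in Dp16 also 0 of 9, where 7.24% did. Mag had 186 ± 0.738 CPM in WT males and 214 ± 7.69 CPM in WT females, and Mbp had 2764 ± 95.6 CPM in WT males and 3245 ± 229 CPM in WT females (SD, n = 3 each). Mal had 299 ± 36.3 CPM in males and 286 ± 4.95 CPM in females of Dp16_2xIFNRs, 285 ± 31.1 CPM in males and 243 ± 54.3 CPM in females of Dp16, and 187 ± 5.66 CPM in males and 212 ± 16.3 CPM in females of WT. The test of the difference itself, genotype by sex, called 0 of 9 genes by edgeR, as it did of all genes (percent called 0), and 0 of 9 had an unadjusted p below 0.05 (3.2% of all genes), with p from 0.077 for Mog to 0.613 for Ermn and 0.0881 for Mal. DESeq2 also called 0 of 9.

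Once genotype and sex were taken out as separate additive terms, the 9 genes varied together between libraries. A difference between the sexes within a single genotype, such as that in WT, was not fully taken out and can add to the correlations. All 36 pairs had a positive Pearson r over the 18 libraries, from 0.23 to 0.923 with a median of 0.756. After adjustment over the 36 pairs, 32 pairs passed by Pearson's r and 23 by Spearman's rho (permutation tests with 100000 resamples, smallest possible p 1e-05). The permutations treated the 18 values as exchangeable, although taking out these terms left 14 degrees of freedom, so these p-values can be too small. Other gene pairs were not tested in this way, so the counts have no share over all genes beside them. The closest pair was Mal and Mobp, with r = 0.923 and rho = 0.818 (adjusted permutation p = 5.14e-05 and 0.00036), and r = 0.896 without the 2 libraries farthest from the median of Mal. The 21 pairs among Mal, Mbp, Mog, Mag, Mobp, Cnp and Cldn11 had r of 0.65 to 0.923. Ugt8a and Ermn formed a pair of their own, with r = 0.837 and rho = 0.736 (adjusted permutation p = 9.82e-05 and 0.00205) and r = 0.659 without the 2 farthest libraries. Their 14 pairs with the other 7 genes had r of 0.23 to 0.734, lowest for Mal with Ugt8a (r = 0.23, permutation p = 0.354) and Mal with Ermn (r = 0.266, permutation p = 0.284). Several of these 14 rested on a few libraries, and Mag with Ugt8a fell to r = 0.0811 without the 2 farthest. All values share the scaling of their library.

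**Figure D4:**
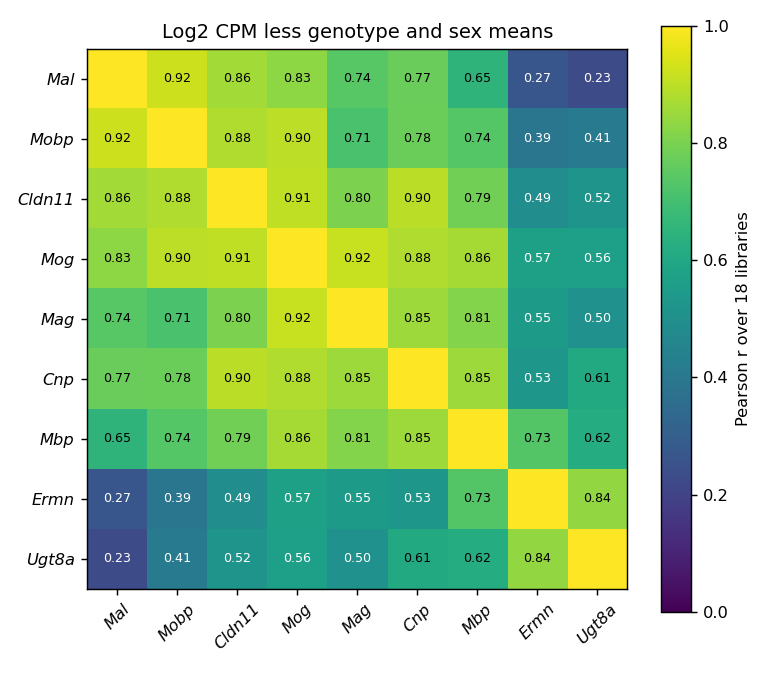
Pearson r over 18 libraries between each pair of the 9 myelin genes, from log2 CPM less separate additive terms of genotype and sex, on a colour scale of 0 to 1. The 21 pairs among the first 7 genes lie between 0.65 and 0.923, Ermn with Ugt8a at 0.837, and Mal with Ugt8a at 0.23.

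Dp16 replicate 1 set part of this shared variation, with a mean over the 9 genes 0.31 log2 units above the level fitted from the separate terms of genotype and sex. WT replicate 5 and Dp16_2xIFNRs replicate 3 followed with 0.17 and 0.16. Outside the set, the 10 genes whose pattern was most like the mean of the 9 were Gatm (r = 0.919), Kat2b (0.914), Slc44a1 (0.901), Bcas1 (0.885), Trf (0.884), Pacs2 (0.879), Tmem63a (0.879), Apod (0.868), Arhgef10 (0.858) and Plekhb1 (0.855), each as Pearson r over 18 libraries. Gatm makes the creatine precursor guanidinoacetate, Slc44a1 carries choline, Trf encodes transferrin and Apod the lipid carrier apolipoprotein D. None of the 10 was called relative to WT. The largest log2 fold changes among them in Dp16_2xIFNRs relative to WT were those of Apod, at 0.34 in Dp16_2xIFNRs (adjusted p = 0.145) and 0.13 in Dp16 (adjusted p = 0.793), and Trf, at 0.25 in Dp16_2xIFNRs (adjusted p = 0.226) and 0.07 in Dp16 (adjusted p = 0.9).

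The rest of the oligodendrocyte lineage was read from lists of genes. Of 34 other genes of mature oligodendrocytes and myelin, 0 were called by edgeR in either comparison with WT, while 11 in Dp16_2xIFNRs and 6 in Dp16 had an unadjusted p below 0.05. These were 32.4% of the 34 in Dp16_2xIFNRs, against 11.5% of all genes tested, and 17.6% in Dp16, against 8.84% of all genes tested. Of the 11, 7 were above zero and 4 below, and of the 6, 4 were above and 2 below. The median log2 fold change of the 34 was 0.02 in Dp16_2xIFNRs, with 21 of 34 above zero (50.2% of all genes). In Dp16 it was -0.0028, with 16 of 34 above zero (49.3% of all genes). Tppp, a tubulin-binding protein of oligodendrocytes, had a log2 fold change of 0.0033 in Dp16_2xIFNRs (adjusted p = 0.994) and -0.03 in Dp16 (adjusted p = 0.937), each relative to WT. The summed level of the 34 genes was 4731 to 5192 CPM in Dp16_2xIFNRs, 4398 to 5518 CPM in Dp16 and 4264 to 5038 CPM in WT, so the genotypes overlapped.

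Of 16 genes of myelin lipid synthesis, 0 were called by edgeR in either comparison with WT. At an unadjusted p below 0.05 stood 2 (12.5%) in Dp16_2xIFNRs, against 11.5% of all genes, and 1 (6.25%) in Dp16, against 8.84%. The fatty acid desaturase Scd2 averaged 1800 ± 135 CPM in Dp16_2xIFNRs, 1825 ± 121 CPM in Dp16 and 1780 ± 173 CPM in WT. The fatty acid synthase Fasn averaged 354 ± 52.4 CPM in Dp16_2xIFNRs, 365 ± 41.2 CPM in Dp16 and 394 ± 38.4 CPM in WT. Of 14 genes of oligodendrocyte precursors, 0 were called in either comparison. In Dp16_2xIFNRs 1 of 14 lay above zero (50.2% of all genes), with a median of -0.08, and in Dp16 8 of 14 (49.3% of all genes), with a median of 0.0052. Whether these 14 move together between libraries was not tested, so their signs need not be separate observations. In Dp16_2xIFNRs relative to Dp16, 0 of the 14 were called and 0 had an unadjusted p below 0.05 (2.19% of all genes). Of the 14, 1 (7.14%) had an unadjusted p below 0.05 in each comparison, against the same 11.5% and 8.84% of all genes. Cspg5, a proteoglycan of precursors, averaged 324 ± 19.6 CPM in Dp16_2xIFNRs, 335.5 ± 16.9 CPM in Dp16 and 365 ± 34.8 CPM in WT. Of the 8 genes of newly formed oligodendrocytes measured, 0 were called in either comparison. At an unadjusted p below 0.05 stood 0 in Dp16_2xIFNRs and 1 (12.5%, against 8.84% of all genes) in Dp16.

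Of 11 transcription regulators of the lineage, 1 was called in each comparison with WT, Olig1, which lies inside the duplicated segment. Over all genes 1.05% were called in Dp16_2xIFNRs and 0.748% in Dp16. At an unadjusted p below 0.05 stood 2 of the 11 (18.2%, against 11.5% of all genes) in Dp16_2xIFNRs, Olig1 and Olig2. In Dp16 3 did so (27.3%, against 8.84%), Olig1, Olig2 and, lower than in WT, Nkx2-2 (log2 fold change -0.38, adjusted p = 0.362). Olig1 averaged 173 ± 17.5 CPM in Dp16_2xIFNRs, 176 ± 16.8 CPM in Dp16 and 137 ± 15.3 CPM in WT, and it rose by a log2 fold change of 0.33 in Dp16_2xIFNRs (adjusted p = 0.0495) and 0.36 in Dp16 (adjusted p = 0.0371), each relative to WT. Its segment neighbour Olig2, which specifies the lineage, averaged 47.1 ± 9.14 CPM in Dp16_2xIFNRs, 45.6 ± 5.76 CPM in Dp16 and 36.1 ± 2.86 CPM in WT (adjusted p = 0.134 in Dp16_2xIFNRs and 0.287 in Dp16). Myrf, the regulator of myelin genes, averaged 79.9 ± 8.59 CPM in Dp16_2xIFNRs, 77.3 ± 10.6 CPM in Dp16 and 75.5 ± 5.33 CPM in WT. Sox10 averaged 54.1 ± 5.49 CPM in Dp16_2xIFNRs, 51.1 ± 7.69 CPM in Dp16 and 54.9 ± 7.40 CPM in WT. Neither Myrf (adjusted p = 0.815 and 0.967) nor Sox10 (adjusted p = 0.984 and 0.876) was called in Dp16_2xIFNRs or in Dp16 relative to WT.

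**Figure D5:**
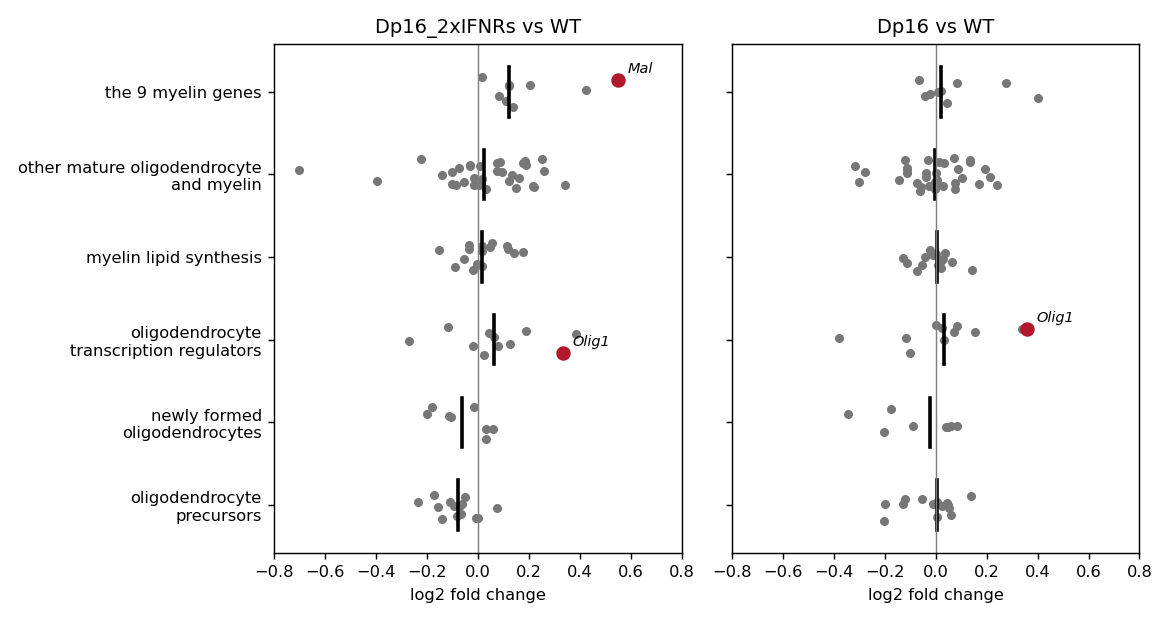
Log2 fold change of each gene of 6 lists of the oligodendrocyte lineage (horizontal axis) in Dp16_2xIFNRs vs WT (left) and Dp16 vs WT (right), 1 point per gene, with the list median as a black bar and genes with an adjusted p below 0.05 in red. Mal at 0.55 is the only red point of the 9 myelin genes, Olig1 is red in both comparisons, and the other lists have medians between -0.08 and 0.06.

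Genes at the receiving side of myelin and of other cell types were read in the same way. Of 9 receptors and partners of myelin-associated inhibitors and 10 genes of axonal nodes and paranodes, 0 were called by edgeR in either comparison with WT. At an unadjusted p below 0.05 stood 4 of the 9 (44.4%, 2 higher and 2 lower) in Dp16_2xIFNRs and 3 (33.3%, all higher) in Dp16. Of the 10, 1 (10%) did so in Dp16_2xIFNRs and 0 in Dp16. Over all genes tested the share was 11.5% in Dp16_2xIFNRs and 8.84% in Dp16. Lingo1, a partner of the receptor through which Mag acts, was named for its abundance and was not among these. It averaged 472 ± 29.1 CPM in Dp16_2xIFNRs, 469 ± 33.2 CPM in Dp16 and 472 ± 32.5 CPM in WT. Of 7 Schwann cell genes, 5 passed the filter on low counts, and these 5 summed to 15.4 to 40.4 CPM in Dp16_2xIFNRs, 12.7 to 35.6 CPM in Dp16 and 20.3 to 44.7 CPM in WT. At an unadjusted p below 0.05 stood 1 of the 5 (20%), lower, in each comparison with WT. One of them, Cdh19, a cadherin also made in the central nervous system, fell in Dp16_2xIFNRs relative to WT (8.03 ± 0.828 CPM against 10.8 ± 0.689 CPM, log2 fold change -0.42, adjusted p = 0.0251). Among 8 astrocyte genes, Fgfr3, a growth factor receptor, fell in Dp16_2xIFNRs relative to WT (111 ± 10.9 CPM against 138 ± 16.6 CPM, log2 fold change -0.30, adjusted p = 0.0464), and the other 7 were not called. At an unadjusted p below 0.05 stood 2 of the 8 (25%) in each comparison with WT, 1 higher and 1 lower. The higher was Gfap, with a log2 fold change of 0.20 in Dp16_2xIFNRs (adjusted p = 0.323) and 0.29 in Dp16 (adjusted p = 0.157). Of the 8, 5 lay above zero in Dp16_2xIFNRs (50.2% of all genes) and 6 in Dp16 (49.3% of all genes). The 8 astrocyte genes summed to 6665 to 8799 CPM in Dp16_2xIFNRs, 6743 to 8931 CPM in Dp16 and 5906 to 9022 CPM in WT. Their part in the result for Mal was not tested.

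For tissue that borders the cortex, 8 striatal genes summed to 346 to 1309 CPM in Dp16_2xIFNRs, 354 to 992 CPM in Dp16 and 376 to 1145 CPM in WT, and 6 choroid plexus genes to 248 to 290.1 CPM in Dp16_2xIFNRs, 233 to 756 CPM in Dp16 and 232 to 498 CPM in WT. These sums varied widely within each genotype for striatum and within Dp16 and WT for choroid plexus, with overlapping ranges. The choroid plexus sum was mostly Enpp2 (mean 254.7 CPM over all libraries), with Ttr next at 37.4 CPM. Whether that sum measures bordering tissue was not tested. In Dp16_2xIFNRs relative to Dp16, 0 of the 6 choroid plexus genes lay above zero (50.9% of all genes), with a median of -1.07. There 3 had an unadjusted p below 0.05 (2.19% of all genes), and 0 were called. Relative to WT, 0 genes of the striatal and choroid plexus lists were called by edgeR, and 0 had an unadjusted p below 0.05. Genes of microglia, neurons, thalamus, endothelium and meningeal fibroblasts also had 0 calls by edgeR, and their sums overlapped between all genotypes. At an unadjusted p below 0.05 stood 2 microglial genes (25%, against 11.5% of all genes) in Dp16_2xIFNRs. In Dp16, 1 microglial gene (12.5%) and 1 endothelial gene (16.7%) did so, against 8.84% of all genes. Around the members themselves, 0 of the tested genes within 250 kb of any of the 9 were called in either comparison with WT, including 9 near Mal (lowest adjusted p 0.482 in Dp16_2xIFNRs and 0.397 in Dp16) and 14 near Mobp (lowest adjusted p 0.17 in Dp16_2xIFNRs and 0.459 in Dp16).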

How the data were processed

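Cortex polyadenylated RNA of 18 mice was measured, with groups, sex and age from the labels. The authors deposited raw counts per gene without normalization, and RPKM values. The RPKM equalled the count per library total and per gene length for 31735 of 31735 genes compared (relative tolerance 1e-06). Per the labels' protocols, libraries were strand-specific and sequenced from both ends. The submitters' processing notes name HTSeq 0.6.1, HISAT2 2.1.0, SAMtools 1.5, FastQC 0.11.5, bcl2fastq and the build GRCm38. How HTSeq treated strand and ambiguous reads is not given in the sources used here.

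Counts were filtered by filterByExpr (minimum count 10), scaled by TMM and tested with edgeR 4.0.16 (quasi-likelihood F test with robust dispersions, R 4.3.3), in a model of genotype plus sex over all 18 libraries. Calls were made at an adjusted p (Benjamini-Hochberg, 18717 genes) below 0.05, and adjusted p-values are those of edgeR where no tool is given. The genotype-by-sex terms were tested together. The test was checked on simulated counts. DESeq2 1.42.0, limma 3.58.1 (voom, and log2 RPKM with a pseudocount of 0.1), other scalings, filters, covariates and sample sets were alternatives, and limma-voom with the identifier number as a random block was added after seeing the data. Correlations used log2 CPM with a prior count of 2.

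Library totals were 46346019 to 67281449 counts, and the common biological coefficient of variation was 12.2% with 14 residual degrees of freedom. No library pair within a genotype looked duplicated (lowest chi-square per degree of freedom 10.9 over 15 pairs in each genotype). The labels call the libraries separate samples, and p-values measure the spread between these samples. The members, the gene lists and the rule for named genes were chosen with earlier results of these data known. Named were all members, fixed genes of the lineage, up to 4 called genes per list (or, where none was called, some of the 2 most abundant) and the 10 genes most like the members. Gfap and Nkx2-2, which were not called, were named in addition, for their unadjusted p. Of the lists of other cell types with no call, only choroid plexus has genes named. Some items are not reported here.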

Additional observations from a re-analysis of the deposited data

Results flagged for a closer look

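Both flagged values come from the same library, Dp16 replicate 1, a male, which stood far above the other 5 Dp16 libraries. Mog had 68.8 CPM there, against 55.6 CPM in the next highest Dp16 library (Dixon ratio 0.672, critical value 0.625). Cnp had 415 CPM there, against 342 CPM in the next highest (Dixon ratio 0.64). Of 27 groups checked in this way, 9 genes in 3 genotypes, these 2 passed, and chance flags about 1 in 20 groups. The cause was not tested. Without this library the log2 fold change in Dp16 relative to WT was -0.0016 for Mog and -0.06 for Cnp.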

How the results depend on the processing

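Mal was called in Dp16_2xIFNRs relative to WT under all 31 alternatives, with log2 fold changes of 0.51 to 0.64 and adjusted p of at most 0.0173. In Dp16 relative to WT Mal kept its direction (0.34 to 0.47) but was called in only 5 of 31 alternatives: the members called there numbered 1, Mal, without sex as a term (adjusted p = 0.0444) and with DESeq2 (0.00526), and ranged from 0 to 1 when single libraries were left out, with 1 without WT replicate 5 (0.0301), Dp16 replicate 2 (0.00825) or Dp16 replicate 6 (0.0271). In Dp16_2xIFNRs relative to WT the members called numbered 2, Mal and Mobp, without sex (Mobp adjusted p = 0.0454), among the 11 libraries whose identifiers start with 9 (0.0397), with DESeq2 (0.0049), with limma on log2 RPKM (0.0392) and with the identifier number as a random block (0.0408), which was chosen after seeing the data. They ranged from 1 to 2 when single libraries were left out, with 2 without WT replicate 5, Dp16 replicate 1, Dp16 replicate 2 or Dp16_2xIFNRs replicate 6. No alternative called a member in Dp16_2xIFNRs relative to Dp16, between the sexes or for genotype by sex. The causes were not tested.

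The sample numbers in the titles were not taken as pairs, since not every same-numbered pair correlated over 0.1. In Dp16_2xIFNRs with WT 5 of 6 did (0.038 to 0.31), in Dp16 with WT 3 of 6 (-0.18 to 0.43) and in Dp16_2xIFNRs with Dp16 3 of 6 (-0.052 to 0.32). With the replicate block, 1 member (Mal, adjusted p = 0.00844) was called in Dp16_2xIFNRs and 0 in Dp16 relative to WT, against 1 and 0 without the block, and all genes called in Dp16_2xIFNRs relative to WT numbered 304. That count was 196 in the fit as reported, 109 among identifiers starting with 9, 405 with DESeq2, 125 without WT replicate 2 and 121 without Dp16_2xIFNRs replicate 2. In Dp16 relative to WT it was 140, against 69 among identifiers starting with 9 and 250 with DESeq2. For genotype by sex it was 0, against 5 and 1 under the same settings, and between the sexes 12, against 21 with DESeq2. Models without sex give no value for the last 2.

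Changes of sign concerned only values with no call and near zero. Among identifiers starting with 9, the male vs female value was 0.030 for Cldn11, 0.041 for Cnp, 0.0062 for Mag and 0.036 for Mog, and the Dp16 vs WT value was 0.046 for Mbp (0.015 with the identifier series as a term) and 0.0058 for Ugt8a. Leaving out single libraries, the Dp16 vs WT values ran from -0.029 to 0.080 for Cldn11, -0.060 to 0.058 for Cnp, -0.14 to 0.0061 for Ermn, -0.051 to 0.037 for Mag, -0.0016 to 0.13 for Mog and -0.087 to 0.040 for Ugt8a. Mbp in Dp16_2xIFNRs vs WT ran from -0.013 to 0.055. The male vs female values ran from -0.062 to 0.016 for Cnp, -0.024 to 0.070 for Ermn, -0.0035 to 0.082 for Mal, -0.0047 to 0.089 for Mobp and -0.079 to 0.0075 for Mog.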
